A study of Mus musculus with 2 samples.

Results

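The interferon response genes described here are 39 mouse genes that interferons are known to induce, out of 56941 genes in the count tables. They were taken by symbol and not by their values: 30 are typical targets of type I interferon (the type I members) and 9 are typical targets of interferon gamma (the gamma members: Irf1, Gbp2, Gbp3, Gbp5, Gbp7, Iigp1, Irgm1, Igtp and Socs1). All 39 were found, Ddx58 by its gene identifier because the tables list it under its newer symbol Rigi. Igtp, an immunity-related GTPase, had no UMI (unique molecular identifier, the unit of counting) in any cell class of either library. The 0 does not show that its RNA was absent, and why it was at 0 was not tested. The other 38 members carried data.

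Interferons are secreted cytokines that set cells into an antiviral and immune-alert state. Type I interferons such as Ifnb1 bind the receptor of Ifnar1 and Ifnar2, which works through Jak1 and Tyk2 to activate a transcription complex that holds Stat2 and Irf9 and binds the interferon-stimulated response element. Interferon gamma (Ifng), made mainly by T and NK cells, binds Ifngr1 and Ifngr2 and works through Jak1 and Jak2 to switch on genes with gamma-activated sites. Many members answer to both cytokines in some degree, so the list names say what a gene is typical of and not which cytokine acted.

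The data were single-cell RNA counts from 2 subcutaneous tumours, 1 mouse each. C57BL/6 mice carried MC38 cells (genotype WT, described in the labels as colon adenocarcinoma), made into a stable pool by lentivirus with either SPP1, the secreted protein osteopontin, or a control vector. Both mice received anti-PD1, an antibody against the checkpoint receptor PD-1, at 10 mg/kg into the abdomen 2 times a week for 2 weeks, from day 7. With 1 library per group there was no replicate and no test across mice. Every interval given is a 95% interval that covers counting error only, and a difference between the libraries cannot be told apart from a difference between 2 mice, 2 cell pools or 2 preparations.

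The libraries held 14317 and 14029 barcodes (the vector library first, then the SPP1 library, here and throughout) with a median of 10277 and 10218 UMIs; 93 barcode sequences occurred in both, and 13906 and 13533 cells were kept. Spp1 did not separate the libraries in the largest class, at 135 and 126 CPM (a gene's UMIs scaled by all UMIs of the class), so each is called by its label, the library labelled SPP1 or the library labelled vector. That class, 10031 and 10111 cells with high Sox9 (836 and 865 CPM) and Hmga2 (838 and 837 CPM), is called the compartment. The epithelial genes Epcam (2 and 1 UMIs), Krt8 (22 and 29 UMIs) and Cdx2 (0 and 0 UMIs) were at or near 0 in it, although the labels describe colon adenocarcinoma. The origin of these cells was not tested. The other classes used were macrophage/monocyte-like cells (840 and 667), T and NK-like cells (145 and 94) and dendritic cell-like cells (43 and 24), all from clusters built without the 39 members. A set of 2335 and 2165 cells with few UMIs was given no type name.

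Promoters are shown first because the members are known for shared control elements in them. They were read from the RefSeq table of build GRCm38.p6 (250 bases before to 50 after each start), which held 30 of the 39 members; the counts were made on GRCm39. The response-element pattern searched was a pair of GAAA with any 2 bases between (or a pair of TTTC, its form on the other strand). It was found in 13 of 22 type I members (59.1%) and 7 of 8 gamma members (87.5%), against 3.99% of all 27025 genes of the table. The gamma-site pattern searched was TTCNNNGAA, which reads the same on both strands, and it was found in 4 of 22 type I members (18.2%) and 4 of 8 gamma members (50%), against 9.55% of all genes. The patterns can overlap, and a match describes letters and not a used site. The 4 type I promoters below are from genes that varied together strongly from cell to cell or differed more between libraries. All 4 hold a response-element match, but Cmpk2, Irf7 and Ifit2, which were also among such genes, hold none. The 4 shown thus do not stand for all such genes. The 3 gamma promoters show a response-element match alone, both patterns, and a gamma-site match alone. Capitals mark the matches. The windows are Ifit1 at chr19:34640639-34640938 (plus strand), Ifit3 at chr19:34583279-34583578 (plus strand), Rsad2 at chr12:26456403-26456702 (minus strand), Isg15 at chr4:156200769-156201068 (minus strand), Gbp2 at chr3:142620413-142620712 (plus strand), Gbp7 at chr3:142530086-142530385 (plus strand) and Irf1 at chr11:53769764-53770063 (plus strand).
Ifit1: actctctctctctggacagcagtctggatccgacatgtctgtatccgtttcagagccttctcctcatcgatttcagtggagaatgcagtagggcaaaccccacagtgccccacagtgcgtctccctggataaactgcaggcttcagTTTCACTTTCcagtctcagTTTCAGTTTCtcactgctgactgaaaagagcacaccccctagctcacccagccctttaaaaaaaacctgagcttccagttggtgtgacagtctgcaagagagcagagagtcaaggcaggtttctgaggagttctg
Ifit3: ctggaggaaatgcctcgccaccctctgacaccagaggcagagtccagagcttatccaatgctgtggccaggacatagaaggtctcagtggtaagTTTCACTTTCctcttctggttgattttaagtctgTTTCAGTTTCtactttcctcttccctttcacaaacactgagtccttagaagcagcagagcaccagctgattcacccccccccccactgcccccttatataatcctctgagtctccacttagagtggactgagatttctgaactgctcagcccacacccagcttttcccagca
Rsad2: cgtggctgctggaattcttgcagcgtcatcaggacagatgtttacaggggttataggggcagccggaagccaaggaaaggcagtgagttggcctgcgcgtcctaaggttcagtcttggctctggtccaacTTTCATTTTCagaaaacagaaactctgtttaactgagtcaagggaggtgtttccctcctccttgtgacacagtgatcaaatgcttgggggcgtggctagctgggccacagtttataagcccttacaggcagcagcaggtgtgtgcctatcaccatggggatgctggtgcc
Isg15: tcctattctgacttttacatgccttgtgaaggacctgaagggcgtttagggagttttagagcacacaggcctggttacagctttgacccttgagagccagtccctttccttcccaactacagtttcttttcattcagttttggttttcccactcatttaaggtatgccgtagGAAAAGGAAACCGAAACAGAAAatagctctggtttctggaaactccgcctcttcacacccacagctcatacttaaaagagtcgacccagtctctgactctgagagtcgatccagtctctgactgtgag
Gbp2: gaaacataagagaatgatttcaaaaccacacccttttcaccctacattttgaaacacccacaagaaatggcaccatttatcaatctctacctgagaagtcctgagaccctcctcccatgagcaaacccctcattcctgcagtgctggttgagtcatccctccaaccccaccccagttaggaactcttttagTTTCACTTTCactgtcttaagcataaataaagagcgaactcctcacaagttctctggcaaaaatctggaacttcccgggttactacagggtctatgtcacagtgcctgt
Gbp7: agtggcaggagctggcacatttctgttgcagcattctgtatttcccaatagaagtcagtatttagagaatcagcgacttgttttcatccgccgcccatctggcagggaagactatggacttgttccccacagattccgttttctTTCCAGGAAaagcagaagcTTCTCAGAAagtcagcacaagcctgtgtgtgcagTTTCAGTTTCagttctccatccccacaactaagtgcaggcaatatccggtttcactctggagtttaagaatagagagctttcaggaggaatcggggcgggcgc
Irf1: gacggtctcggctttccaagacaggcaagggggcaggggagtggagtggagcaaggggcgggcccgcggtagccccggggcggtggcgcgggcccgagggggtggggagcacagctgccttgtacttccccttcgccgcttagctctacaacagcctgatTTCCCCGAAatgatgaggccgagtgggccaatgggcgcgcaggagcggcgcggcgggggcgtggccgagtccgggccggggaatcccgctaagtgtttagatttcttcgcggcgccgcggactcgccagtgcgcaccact

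Ifit1 and Ifit3, which encode proteins that bind foreign RNA, each had 2 response-element matches within a short stretch. The promoter of Isg15, which encodes a ubiquitin-like protein joined to other proteins, had matches that run into one another, and that of Rsad2 (viperin, an enzyme that makes a chain-ending nucleotide) had 1. Gbp7, a guanylate-binding protein, had both kinds of match. Irf1, the transcription factor that gamma activates early, had 2 start windows in the table; the one shown held the gamma-site pattern, and neither held the response-element pattern. No match was found for Cmpk2, Irf7, Irf9, Oasl1, Oasl2, Ifi44 and Xaf1 in these windows.

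Type I members were detected in each class used, and among these dendritic cell-like cells had the highest sum. That sum rests on 347 and 275 UMIs, and no interval was computed for it, so its place above macrophage/monocyte-like cells is uncertain. The 30 type I members together made up 1132 and 1436 CPM in dendritic cell-like cells, 1012 and 1261 CPM in macrophage/monocyte-like cells, 709 and 709 CPM in the compartment and 697 and 708 CPM in T and NK-like cells. These first 2 classes were above the other 2 in each library. The 9 gamma members were lowest in T and NK-like cells, at 466 and 372 CPM, against 744 and 700 CPM in dendritic cell-like cells, 823 and 708 CPM in macrophage/monocyte-like cells and 874 and 771 CPM in the compartment. T and NK-like cells, the class that held most of the Ifng message, had the lowest sum of gamma members in both libraries.

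**Figure D1:**
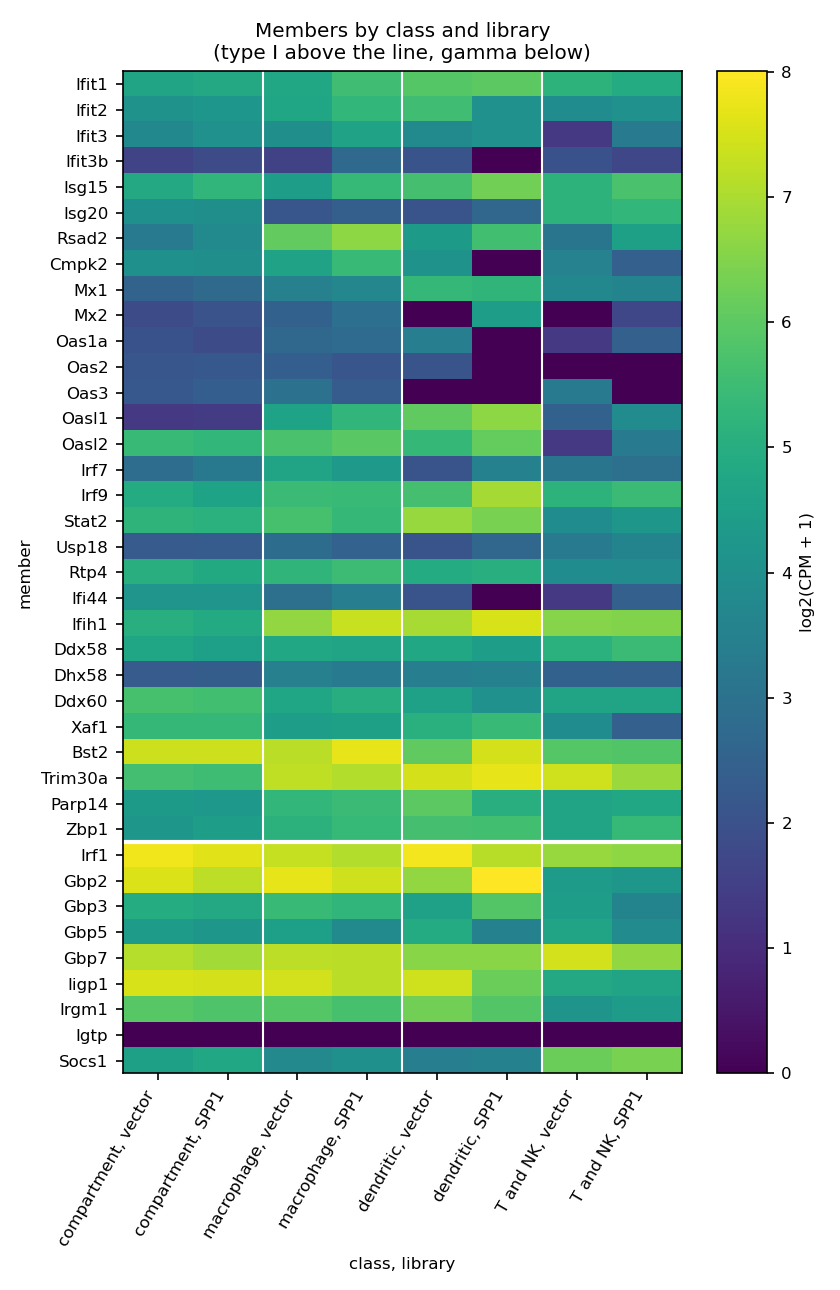
Level of each of the 39 members, as log2(CPM + 1) by colour, in 4 cell classes (columns, each by library: vector, then SPP1), with type I members above the white line and gamma members below. Igtp is at 0 in every column, Irf1, Gbp2, Iigp1 and Gbp7 are the brightest gamma rows, and the dendritic cell-like columns rest on 43 and 24 cells.

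Over both libraries, 14 of 30 type I members were highest in dendritic cell-like cells, 10 in macrophage/monocyte-like cells, 3 in T and NK-like cells and 3 in the compartment. For most members the highest class and the next had overlapping intervals. The highest class stood apart, and was highest in both libraries, for 11 of the 30 type I members. In dendritic cell-like cells these were Stat2 (98.4 CPM against 45.4 CPM in the next class, macrophage/monocyte-like), Irf9 (76.3 against 42.2 CPM), Oasl1 (78.3 against 30.03 CPM), Ifit1 (60.2 against 34.9 CPM) and Mx1 (38.1 against 11.8 CPM, its next class being T and NK-like cells). Stat2 and Irf9 belong to the type I transcription complex, Oasl1 is a member of the oligoadenylate synthetase family, and Mx1 is a dynamin-like antiviral GTPase. Few dendritic cell-like cells carried some of these: 3 cells per library held 90% and 89.5% of Oasl1 UMIs, 88.9% and 83.3% of Ifit1, 75% and 71.4% of Mx1 and 53.3% and 73.9% of Irf9, which the counting intervals do not cover, against 30.3% and 43.8% of Stat2.

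In macrophage/monocyte-like cells the genes that stood apart were Rsad2 (80.8 against 30.1 CPM in dendritic cell-like cells), Cmpk2 (31.7 against 15.1 CPM in the compartment) and Irf7 (22.1 against 7.26 CPM in the compartment). Cmpk2 encodes a nucleotide kinase and lies beside Rsad2 in the genome, and Irf7 is the factor that amplifies type I interferon production. T and NK-like cells stood apart only for Isg20, an exonuclease, among the type I members (36.3 against 14.96 CPM in the compartment), and for Socs1, an inhibitor of Jak signalling, among the gamma members (77.1 against 24.7 CPM). The compartment stood apart for Ifi44 (17.0 against 8.01 CPM) and the RNA helicase Ddx60 (48.3 against 27.7 CPM), both against macrophage/monocyte-like cells, and for Iigp1, an immunity-related GTPase (181 against 160 CPM). Gbp2 was higher in macrophage/monocyte-like cells than in the compartment (193 against 168 CPM) over both libraries, but it was not highest there in each of them. The first and next class overlapped for the rest, among them Rtp4 in macrophage/monocyte-like cells (39.6 against 30.1 CPM), the protease gene Usp18 in T and NK-like cells (9.98 against 5.505 CPM), Xaf1 in the compartment (39.02 against 36.1 CPM), Irf1 in the compartment (215 against 197 CPM) and Gbp7 in T and NK-like cells (146 against 146 CPM).

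Responding cells were counted after each cell had been thinned to 1000 UMIs, so that deep cells gain nothing. A type I responding cell had at least 3 UMIs from at least 2 type I members, and a gamma responding cell at least 2 UMIs from at least 2 gamma members; the limits were set with these data in view, so the shares describe a range and not a cell type. In the compartment 695 of 9999 cells (6.95%, 6.46 to 7.47%) and 688 of 10062 cells (6.84%, 6.35 to 7.35%) were type I responding. Gamma responding cells made up 15.6% (14.9 to 16.3%) and 13.3% (12.6 to 14.0%) there. Their limit of 2 UMIs was lower, so these shares cannot be set against the type I shares. Macrophage/monocyte-like cells had 9.47% (7.57 to 11.7%) and 11.6% (9.27 to 14.3%) type I responding cells, and 13.2% (10.97 to 15.7%) and 9.79% (7.62 to 12.3%) gamma responding cells.

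The smaller classes could not be ordered by these shares. Dendritic cell-like cells had 10 of 43 (23.3%) and 5 of 24 (20.8%) type I responding cells, with intervals of 11.8 to 38.6% and 7.13 to 42.2%, and 4 of 43 and 0 of 24 gamma responding cells, where the 0 allows up to 14.2%. T and NK-like cells had 12 of 141 (8.51%) and 8 of 86 (9.30%) type I responding cells and 11 of 141 (7.80%) and 10 of 86 (11.6%) gamma responding cells. Endothelial-like cells, not among the classes used, had 1 of 16 and 6 of 20 type I and 5 of 16 and 3 of 20 gamma responding cells. Their mean was 1.19 and 2.00 type I UMIs per thinned cell, against 1.28 and 1.21 in dendritic cell-like cells. The set of cells with few UMIs had 4.42% and 4.35% type I and 18.5% and 14.4% gamma responding cells. Without thinning, the compartment's shares were 77.5% and 69.1% (type I) and 74.2% and 63.8% (gamma), at median depths of 12352 and 11936 UMIs, so they measure depth as much as response. In thinned compartment cells 874 and 740 cells were 1 UMI below the type I limit and 341 and 273 were at it.

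**Figure D2:**
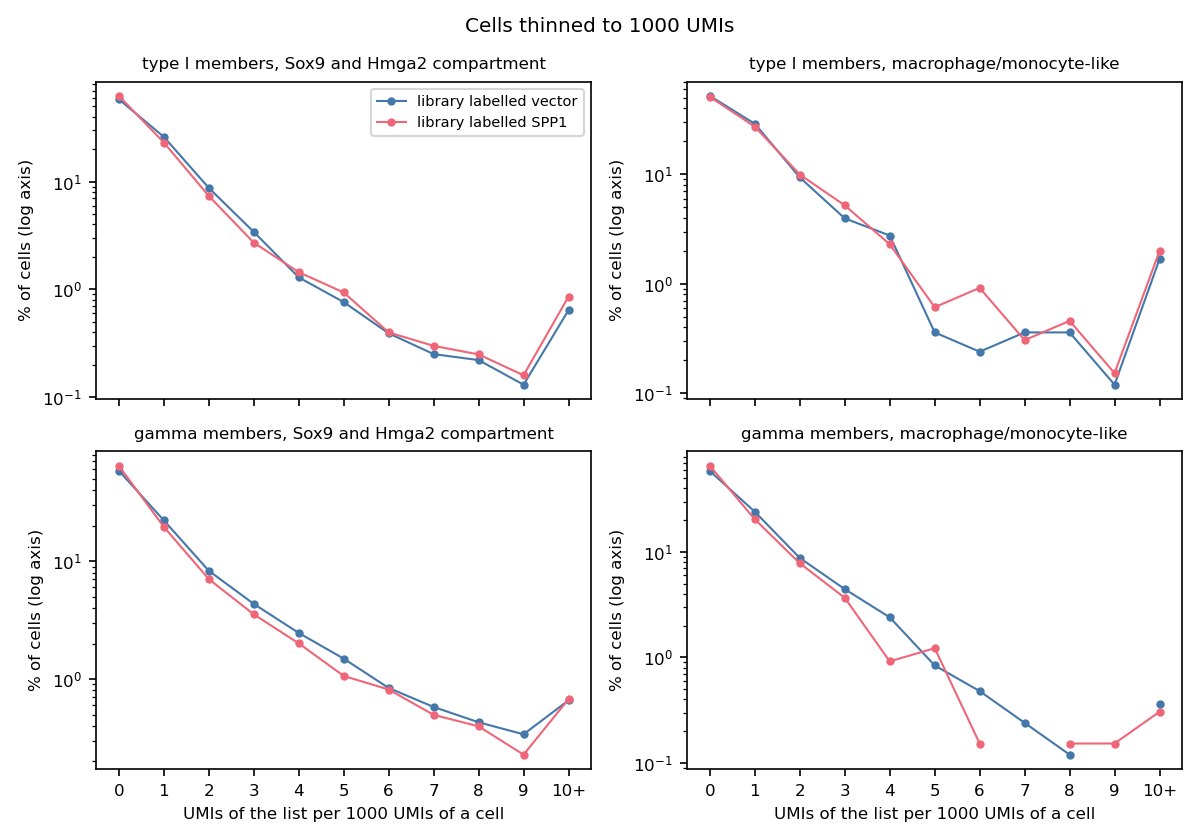
Share of cells (percent, log axis) by the number of UMIs of a member list in each cell thinned to 1000 UMIs (10+ pools 10 and more), for type I (top) and gamma members (bottom), in the compartment (left) and macrophage/monocyte-like cells (right), one line per library; counts with no cell are not drawn. Between 50.9% and 65.3% of cells had none, and the upper tail past 10 held 1.68% and 1.99% of macrophage/monocyte-like cells for the type I list.

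Much of the UMIs of both lists lay in few thinned cells. The mean was only 0.79 and 0.77 type I UMIs per compartment cell, so counting alone gives some of this. How much was not computed. The top 10% of compartment cells, ranked by each list, held 52.4% and 58.4% of its thinned type I UMIs and 54.5% and 59.4% of its gamma UMIs, and single cells reached 41 and 34 type I UMIs of 1000. Among macrophage/monocyte-like cells the same share of cells held 54.1% and 56.3% of type I UMIs, with single cells at 19 and 43 UMIs. Some members rested on very few macrophage/monocyte-like cells of the library labelled SPP1: 3 cells held 66.5% of all Cmpk2 UMIs, 64.5% of Ifit3 and 41.9% of Rsad2, against 41.5%, 41.6% and 31.5% in the library labelled vector. Irf1 was spread more evenly, with 5.08% and 5.86% of its UMIs in 3 cells.

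Co-variation was read over single cells. All correlations are over the thinned cells of 1 library, which share preparation and depth, and describe those cells only. They pool the clusters of a class, so differences between clusters enter them, and none was computed within a cluster. The type I and gamma sums correlated with Pearson r of 0.252 and 0.347 over 9999 and 10062 compartment cells (Spearman 0.228 and 0.318), and of 0.164 and 0.178 over 834 and 654 macrophage/monocyte-like cells. In T and NK-like cells it was -0.008 and 0.160 over 141 and 86 cells. Among type I responding compartment cells 41.0% and 50.4% were also gamma responding, against 13.7% and 10.6% of the rest. The values in macrophage/monocyte-like cells were 29.1% and 17.1%, against 11.5% and 8.82%. Type I responding compartment cells had somewhat fewer UMIs before thinning than the rest, a median of 10902 against 12544 and of 11236 against 12012.

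The strongest pairs of members in the compartment lay within a list. In the compartment the strongest type I pairs were Ifit3 with Rsad2 (r 0.41 and 0.39), Ifit1 with Ifit3 (0.35 and 0.46) and Rsad2 with Cmpk2 (0.35 and 0.43), the genes whose promoters are printed above except for Cmpk2. The strongest gamma pairs were Gbp2 with Iigp1 (0.30 and 0.32), Gbp2 with Gbp7 (0.28 and 0.33) and Gbp7 with Iigp1 (0.27 and 0.31). Pairs that mixed the lists reached 0.13 and 0.16 at most, and the strongest over both libraries was Isg15 with Gbp7 (0.13 and 0.13). The median over pairs was low: 0.04 and 0.06 over 435 type I pairs, 0.10 and 0.10 over 28 gamma pairs and 0.03 and 0.04 over 240 mixed pairs. Most members are at 0 in most thinned cells, and the part of this in the low medians was not tested. In macrophage/monocyte-like cells the strongest pairs, ranked by the lower value of the libraries, were Ifit2 with Cmpk2 (0.47 and 0.79) and Rsad2 with Cmpk2 (0.46 and 0.80). Gamma pairs did not stand above mixed pairs there. Mixed pairs reached 0.27 and 0.20, and gamma pairs 0.25 and 0.20. Rsad2 and Cmpk2 are neighbouring genes, as are Ifit2 and Ifit3, and Gbp7 lies beside Gbp5 and Gbp3.

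Outside the list, the genes most like the type I sum over compartment cells, of 9967 compared, were the E3 ligase gene Rnf213 (r 0.36 and 0.32), the chemokine gene Cxcl10 (0.29 and 0.35) and Mndal (0.29 and 0.27). Type I responding compartment cells had 4.996 and 5.72 UMIs per 1000 from 43 other type I genes, against 2.22 and 2.26 in the rest, and 10.4 and 11.8 from 26 other gamma genes, against 6.22 and 5.51. Their proliferation genes were lower, at 0.963 against 1.33 and 0.936 against 1.19 UMIs per 1000.

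A set of compartment cells had low levels of nearly every member and belonged almost wholly to 1 library, though some other clusters were also low. Clusters C3 (83 and 1937 cells; led by Pcdh9, Nrep and Magea9) and C12 (53 and 879 cells; led by Magea9) made up 1.36% of the compartment for the library labelled vector but 27.9% for the library labelled SPP1. They were picked because under 10% of their cells came from 1 library, not by member levels, and the members were left out when the clusters were built. Within the library labelled SPP1 the type I members summed to 320 CPM in C3 and C12 and to 851 CPM in the other compartment clusters (log2 ratio -1.41, -1.44 to -1.38). All 30 type I members were lower there, each with an interval below 0, with a median of -1.64. The gamma members summed to 240 against 966 CPM (log2 ratio -2.01, -2.04 to -1.98), and all 8 with counts were lower, with a median of -2.21. Over all 18038 genes with enough counts, 62.0% were lower, with a median of -0.10. Low sums were not particular to these clusters. C3 alone had type I members at 447 and 389 CPM, near C13 (494 and 443 CPM) and C2 (624 and 435 CPM) of both libraries. C12 was lower, at 233 and 240 CPM. The gamma sum was 382 and 275 CPM in C3, 148 and 199 CPM in C12, 545 and 326 CPM in C17 and 445 and 369 CPM in C2. The other clusters also held C9, at 2625 CPM for type I members in the library labelled SPP1.

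The size of the gap differed between members. Iigp1 was at 21.7 against 237 CPM (log2 ratio -3.45), Rsad2 at 1.87 against 17.0 CPM (-3.18), Gbp2 at 27.0 against 189 CPM (-2.81) and Ifit1 at 7.01 against 34.9 CPM (-2.32). The narrowest gaps were those of Ifit2, at 15.6 against 18.3 CPM (-0.23), of Trim30a (-0.50) and of Isg20 (-0.54). The few such cells of the library labelled vector had similar levels: 136 cells with type I members at 319 against 714 CPM (log2 ratio -1.16, -1.29 to -1.04; 27 of 27 members lower) and gamma members at 242 against 882 CPM (-1.87, -2.01 to -1.73; 8 of 8 lower). In that library 48.1% of all genes were lower.

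**Figure D3:**
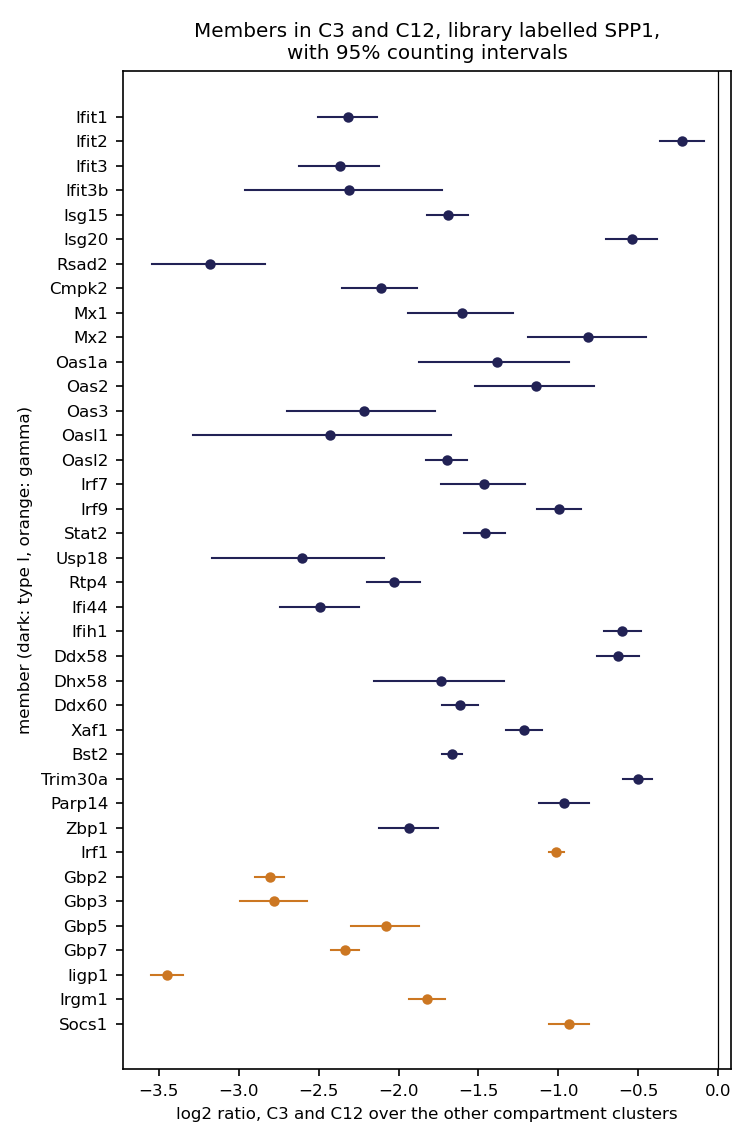
Log2 ratio of each member's CPM in compartment clusters C3 and C12 over the other compartment clusters, in the library labelled SPP1, with 95% counting intervals (dark: type I members, orange: gamma members). Every point and interval lies left of 0, from Iigp1 at -3.45 to Ifit2 at -0.23.

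Genes that carry the signal were also compared between these clusters and the rest. The receptor genes were not lower in the library labelled SPP1: Ifnar1 was at 20.8 against 16.3 CPM, Ifngr1 at 57.8 against 53.0 CPM and Ifngr2 at 22.9 against 22.9 CPM. The kinase genes Jak1 (263 against 254 CPM), Jak2 (46.4 against 40.1 CPM) and Tyk2 (7.04 against 6.38 CPM) were not lower either, while the transcription factor gene Stat3 was at 126 against 139 CPM (log2 ratio -0.15, -0.19 to -0.10). In the library labelled vector Jak1 was at 271 against 264 CPM, Jak2 at 38.5 against 42.3 CPM, Tyk2, on 7 UMIs, at 4.08 against 6.31 CPM and Stat3 at 145 against 168 CPM. Stat2, a member and part of the type I transcription complex, was at 14.7 against 40.4 CPM (log2 ratio -1.46). Of the other type I genes 38 of 39 were lower, and of the other gamma genes 22 of 22, among them Tap1 (14.1 against 42.3 CPM) and B2m (3270 against 5042 CPM) of antigen presentation and Nlrc5, the activator of class I genes (35.2 against 82.6 CPM).

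Several other measures moved with C3 and C12. Spp1 itself was lower in them, at 39.1 against 136 CPM and 48.2 against 154 CPM. Most fibroblast marker genes read were higher in the library labelled SPP1. Dcn (1525 against 988 CPM), Lum (9.29 against 3.29 CPM), Pi16 (13.4 against 3.83 CPM) and Pdgfra (47.0 against 34.3 CPM) were higher. Dpt (5.11 against 11.7 CPM) was lower. Of the compartment's own marker genes Sox9 was alike (861 against 866 CPM) and Hoxa9 slightly higher (46.2 against 43.5 CPM). Hmga2 (656 against 903 CPM), Tafa1 (858 against 1045 CPM) and Prrx1 (276 against 347 CPM) were lower. These marker genes were chosen after their values were seen. Dissociation stress genes were higher in C3 and C12 (log2 ratio 0.56 in the library labelled SPP1), proliferation genes were lower (-0.59) and the median depth was 11253 against 12290 UMIs. The part of these in the member levels was not tested, and with 1 library per group a cluster that comes mostly from 1 library may be that library rather than a type of cell. When the other interferon genes were left out of the clustering too, the clusters chosen by the same rule held 82 and 2500 cells, of which 64 and 2392 were C3 or C12 cells, with type I log2 ratios of -1.33 and -1.28 and gamma log2 ratios of -1.71 and -1.82.

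Summed over the whole compartment, the libraries had equal type I levels and differed in gamma levels. The type I sum was 709 and 709 CPM (log2 ratio of the library labelled SPP1 over the library labelled vector 0.00, -0.01 to 0.01), with 17 members higher and 13 lower and a median of 0.03. The gamma sum was 874 and 771 CPM (-0.18, -0.19 to -0.17), with 1 member higher, 7 lower and a median of -0.14. Over all 19932 genes of the compartment with enough counts the median was 0.02. Some of its clusters (C0, C9 and C3) had a fibroblast gene among their leading genes, so the whole-compartment values are sums over unlike clusters, and the values by cluster follow.

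A member was called different where its ratio and its whole interval went past 1.5-fold with at least 100 UMIs in the class. None of the 38 members was called in the compartment in either direction, where the background was 1.74% of 15409 genes called higher and 0.474% called lower in the library labelled SPP1. With no limit on the fold, 12 members had intervals above 0 and 17 below. The share of all genes with such intervals was not counted, so these numbers do not set the members apart. Over the 10737 genes with at least 1000 UMIs the median size of the log2 ratio was 0.12. Rsad2 had 8.92 and 12.9 CPM (log2 ratio 0.53, 0.43 to 0.64), Isg15 27.7 and 37.6 CPM (0.44, 0.38 to 0.50), Irf7 6.19 and 8.34 CPM (0.43, 0.30 to 0.56) and Ifit3 12.2 and 15.7 CPM (0.36, 0.27 to 0.45). On the other side stood Gbp2 with 191 and 145 CPM (-0.40, -0.42 to -0.37), Irf9 with 29.3 and 23.7 CPM (-0.30, -0.37 to -0.24) and Irf1 with 229 and 201 CPM (-0.19, -0.21 to -0.16). Ifit1 had 24.7 and 27.4 CPM, Stat2 36.2 and 33.5 CPM, Bst2 (tetherin, which holds virus particles to the cell surface) 168 and 166 CPM, Irgm1 59.7 and 54.4 CPM and Socs1 22.6 and 26.8 CPM.

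**Figure D4:**
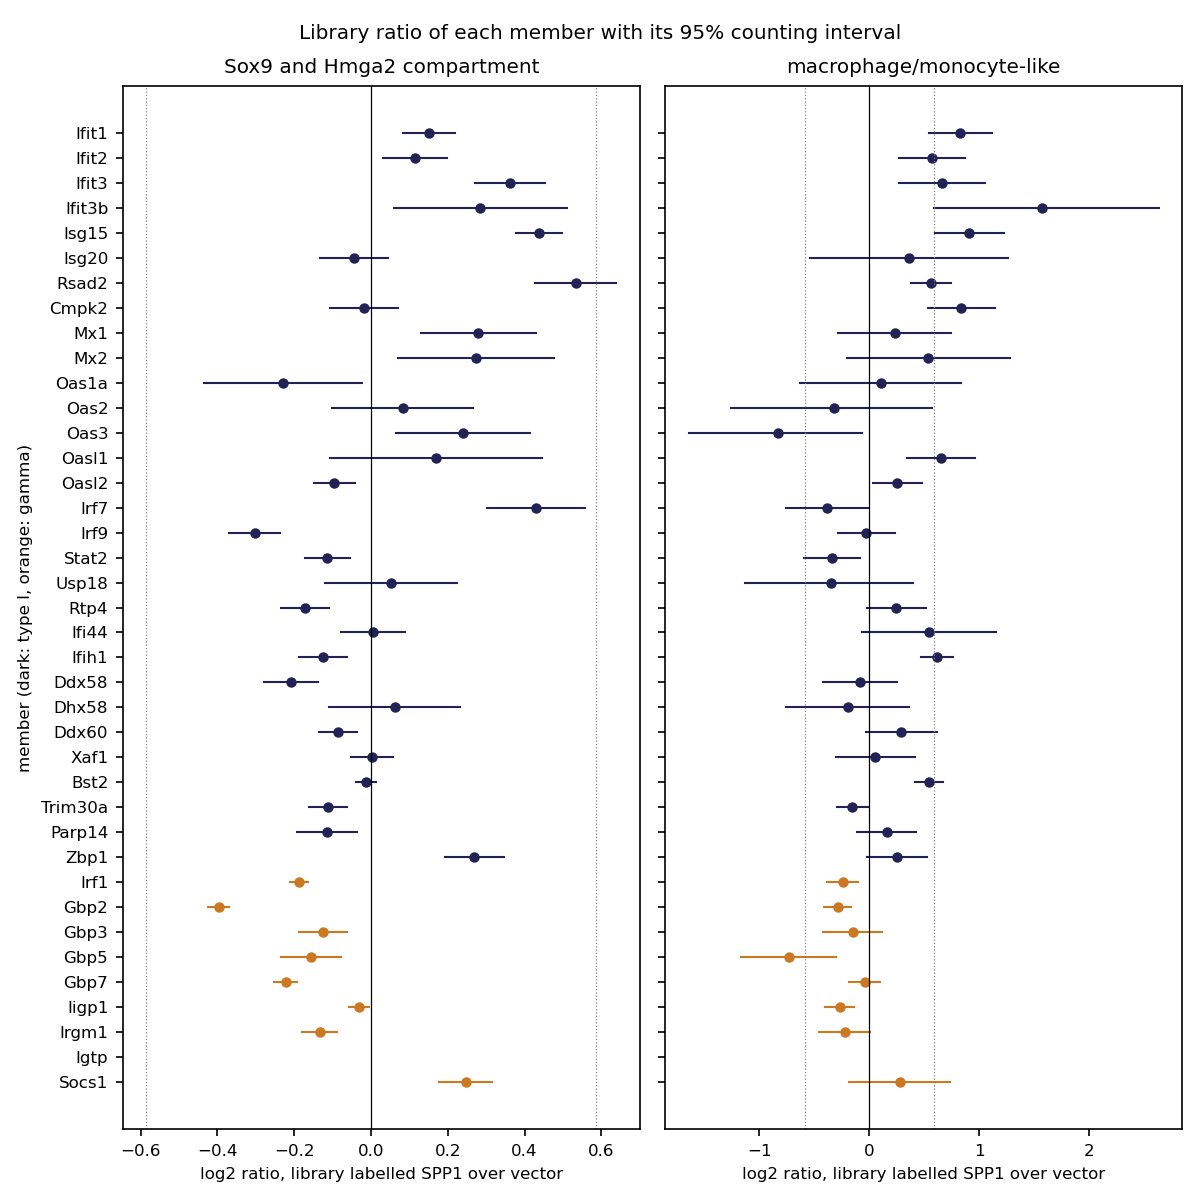
Log2 ratio of each member, library labelled SPP1 over library labelled vector, with 95% counting intervals, in the compartment (left) and macrophage/monocyte-like cells (right); dark points are type I members, orange points gamma members, and dotted lines mark 1.5-fold. In the compartment 7 of 8 gamma points lie left of 0, and in macrophage/monocyte-like cells 21 of 30 type I points lie right of 0.

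These whole-compartment ratios turned on C3 and C12. Without those clusters the type I sum had a log2 ratio of 0.25 (0.24 to 0.27), with 27 of 30 members higher and a median of 0.30. The gamma sum then had a ratio of 0.13 (0.12 to 0.14) in place of -0.18, with 7 of 8 members higher and a median of 0.16. The share and median over all genes were not computed without those clusters, so these counts do not set the members apart. With every cluster given the same weight in both libraries the sums had ratios of 0.28 and 0.19. Rsad2 stood at 0.91 without them, Isg15 at 0.72, Ifit3 at 0.70 and Irf7 at 0.69, while Irf1 stood at 0.01 and Gbp2 at -0.03. The gamma sum thus turned direction with the choice of clusters, and the type I sum moved from level to higher.

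Cluster by cluster the type I sum was higher in the library labelled SPP1 in 6 of 14 compartment clusters, lower in 5 and without a clear side in 3, by counting intervals. Cluster C9 (800 and 509 cells, led by Aspn and Ogn) had the widest gap, 1161 and 2625 CPM (log2 ratio 1.18, 1.14 to 1.21). The member Ifit3 was among its 10 leading genes, and interferon genes other than the members were not left out when the clusters were built. In C9 11.3% and 27.9% of cells were type I responding and 25.1% and 39.5% gamma responding, the largest shares of the compartment's clusters in the library labelled SPP1. C10 had 650 and 1143 CPM (0.81) and C15 546 and 936 CPM (0.78). Cluster C2 (934 and 1099 cells; led by Prl2c2, Edn2 and Rgs4) went the other way, with 624 and 435 CPM (-0.52, -0.57 to -0.47) and 6.24% and 2.28% type I responding cells. For the gamma sum 8 clusters were higher and 6 lower, from C9 (1771 and 2463 CPM, 0.48) to C17 (545 and 326 CPM, -0.74). C12 had 0 of 53 and 6 of 879 type I responding cells (the 0 allows up to 6.72%).

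**Figure D5:**
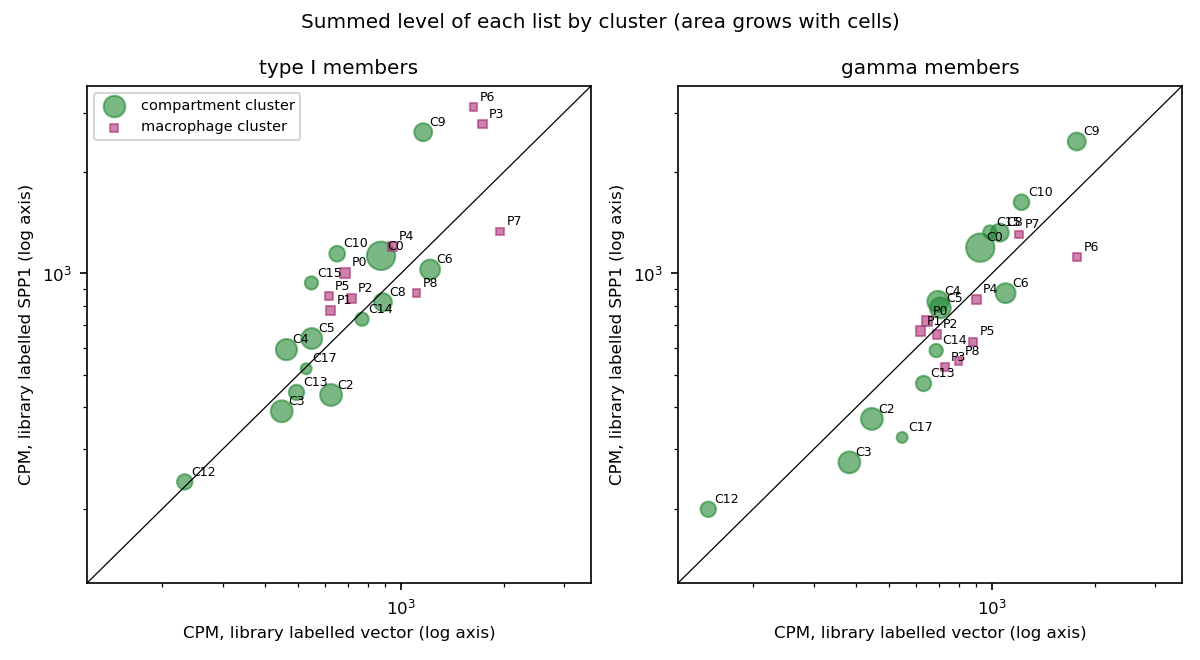
Summed CPM of the type I (left) and gamma members (right) in each cluster, library labelled vector on the x axis and SPP1 on the y axis, both log axes, with green circles for compartment clusters and pink squares for macrophage clusters, sized by cells; the line marks equality. C3 and C12 lie at the lower left for both lists, and C9 lies above the line for both.

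In macrophage/monocyte-like cells the 2 lists leaned in opposite directions. The type I sum was 1012 and 1261 CPM (log2 ratio 0.32, 0.27 to 0.37), with 21 of 30 members higher and a median of 0.25. With the 3 cells per library richest in each member left out for that member, 18 of 30 were higher, with a median of 0.10. The gamma sum was 823 and 708 CPM (-0.22, -0.28 to -0.16), with 7 of 8 members lower and a median of -0.23. Over all 11921 genes of the class with enough counts 50.1% were higher. The difference between the lists was not tested. Reference genes of the compartment were also higher in this class (367 and 498 CPM, 0.44, 0.36 to 0.52), as were proliferation genes (795 and 933 CPM, 0.23), and their part in the type I ratio was not tested.

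Isg15 was the only member called in macrophage/monocyte-like cells, of 30 with at least 100 UMIs, against a background of 0.391% of 8438 genes called higher and 0.166% called lower. It had 146 and 213 UMIs, or 21.7 and 40.6 CPM (log2 ratio 0.91, 0.60 to 1.22). Without the 3 cells of each library that held the most Isg15 UMIs its ratio was 0.60 (0.25 to 0.94), which no longer passed. Ifit1 had 26.1 and 46.3 CPM (0.83, 0.54 to 1.12), Cmpk2 23.6 and 42.1 CPM (0.84, 0.54 to 1.14) and Ifit3 14.98 and 23.6 CPM (0.66, 0.27 to 1.05); without 3 cells each their ratios were 0.64, 0.04 and -0.06. Other members moved less: the RNA sensor Ifih1 (104 and 159 CPM, 0.61) had 0.52 without 3 cells, Bst2 (143 and 208 CPM, 0.54) had 0.53 and Oasl1 (24.0 and 37.7 CPM, 0.65) had 0.59. Rsad2 had 66.9 and 98.7 CPM (0.56, 0.38 to 0.75), and 0.33 without 3 cells.

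Not all type I members leaned up. The transcription factors Irf7 (24.6 and 18.9 CPM, -0.38, -0.76 to -0.02) and Stat2 (49.98 and 39.4 CPM, -0.34, -0.60 to -0.09) were lower, as was Oas3 (7.12 and 4.002 CPM, -0.83). Of the gamma members Gbp5 had 21.8 and 13.2 CPM (-0.73, -1.16 to -0.31), Gbp2 210 and 172 CPM (-0.29, -0.41 to -0.17), Iigp1 173 and 144 CPM (-0.27, -0.40 to -0.14) and Irf1 158 and 133 CPM (-0.24, -0.38 to -0.10). Irgm1 had 59.0 and 50.5 CPM and Socs1, the 1 gamma member that was higher, 12.6 and 15.2 CPM (0.27, -0.18 to 0.73). Without the 3 cells of each library with the most type I UMIs the type I sum had a ratio of 0.18 (0.12 to 0.23).

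By cluster, the type I sum was higher in the library labelled SPP1 in 7 of 9 macrophage clusters and lower in 2. It was widest in P6 (71 and 42 cells; Ifit3b and Ifit1bl1 were its leading genes, and interferon genes other than the members were used to build it), with 1629 and 3118 CPM (0.94, 0.79 to 1.08) for type I and 1774 and 1120 CPM (-0.66, -0.86 to -0.47) for gamma members. P3 (96 and 80 cells, led by Adm and Gpnmb) had 1732 and 2773 CPM for type I (0.68). Its 10 leading genes included the members Cmpk2 and Rsad2, and interferon genes other than the members were not left out there either. P7, led by the monocyte genes Plac8 and Ly6c2 (74 and 35 cells), had 1951 and 1331 CPM (-0.55, -0.76 to -0.35), although 13 of 74 (17.6%, 9.70 to 28.2%) and 8 of 35 (22.9%, 10.4 to 40.1%) of its cells were type I responding. The gamma sum was lower in 4 clusters, higher in 1 and without a clear side in 4.

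T and NK-like cells allowed little comparison. The type I sum was 697 and 708 CPM (log2 ratio 0.02, -0.19 to 0.23) and the gamma sum 466 and 372 CPM (-0.33, -0.61 to -0.05). Of the 4 members with at least 100 UMIs none was called, against 0.53% of 2077 genes called higher and 0.289% called lower. Gbp7 had 175 and 103 CPM (-0.77, -1.29 to -0.26), and Trim30a, an interferon-induced TRIM family gene, 169 and 110 CPM (-0.62, -1.14 to -0.13). Isg20 had 35.1 and 38.1 CPM and Socs1 73.2 and 82.9 CPM, with intervals that included 0. Dendritic cell-like cells had no member with at least 100 UMIs, and their type I sum had a log2 ratio of 0.34 (0.11 to 0.58) over 43 and 24 cells. Macrophage reference genes were also higher in them (176 and 470 CPM, 1.42, 0.91 to 1.93), as were compartment reference genes (339 and 559 CPM, 0.72), and their part in that ratio was not tested.

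The genes that start and carry the signal were read from pathway lists. Interferon message was rare. Ifng had 137 and 106 UMIs in T and NK-like cells, in 50 of 145 (34.5%) and 40 of 94 (42.6%) of them, and 10 and 6 UMIs in the whole compartment. Ifnb1 had 9 UMIs in 3 macrophage/monocyte-like cells (0.357%, 0.07 to 1.04%) and 27 UMIs in 8 cells (1.20%, 0.52 to 2.35%). Those 8 cells had type I members at 6766 CPM against 1180 CPM in the other macrophage/monocyte-like cells and held 7.78% of the class's type I UMIs; the 3 cells of the library labelled vector had 3152 against 1003 CPM. In the compartment 4 and 5 cells had an Ifnb1 UMI, with type I members at 1893 against 709 CPM in the 4 and at 8124 against 706 CPM in the 5. Ifnb1 had under 100 UMIs, too few for a call.

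The 4 receptor genes with enough counts in the compartment had log2 ratios from -0.08 to 0.33, the highest being that of Ifngr2. Ifnar1 had 16.1 and 17.5 CPM and Ifngr1 57.5 and 54.3 CPM. Macrophage/monocyte-like cells had more of both, with 64.2 and 56.8 CPM of Ifnar1 and 185 and 164 CPM of Ifngr1. T and NK-like cells had the most Ifngr1, 450 and 255 CPM (log2 ratio -0.82, -1.14 to -0.50), which was not called. Of the 22 other gamma genes with enough counts in the compartment 5 were higher and 17 lower, and of the 40 other type I genes 15 were higher and 25 lower. Of all 19932 genes 53.1% were higher. The other gamma genes summed to 6286 and 5816 CPM (-0.112, -0.116 to -0.108). The other type I genes summed to 2313 and 2453 CPM (0.085, 0.078 to 0.092), against the direction of most of them. These values include C3 and C12 and were not repeated without them.

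Some measures of sample quality bear on these values. Free RNA gives counts in cells that do not express a gene: the macrophage gene Lyz2 had a UMI in 1.29% and 1.38% of thinned compartment cells and in 93.0% and 97.1% of macrophage/monocyte-like cells. In the same thinned compartment cells Rsad2 had one in 0.94% and 0.84% and Ifit3 in 1.10% and 1.29%, against 3.36% and 3.52% (Rsad2) and 0.5995% and 1.38% (Ifit3) of macrophage/monocyte-like cells. How much of these low shares is free RNA was not tested. Irf1 had a UMI in 17.7% and 15.2% of the compartment cells and Bst2 in 14.9% and 14.1%. Reads of Ifit3 and its near copy Ifit3b may be divided between them, Ifit1 and Ifit3b overlap Ifit1bl1, and Isg15, Stat2, Rtp4, Usp18, Ifih1, Dhx58, Trim30a, Gbp2 and Gbp3 each overlap another gene in the RefSeq table, so their counts are uncertain where strand was not used. Macrophage marker genes summed to 26.2 and 32.6 CPM in the compartment (log2 ratio 0.31) and to 12188 and 16553 CPM in macrophage/monocyte-like cells (0.44), and the part of this in the member ratios was not tested.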

How the data were processed

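The authors deposited raw counts of UMIs by barcode for 2 libraries, made with Cell Ranger 2.1.1 on GRCm39 per the submitters' processing notes; the sources used here give no other upstream settings. The deposited counts hold 164247003 and 164599332 UMIs. Barcodes had to show 300 genes and 500 UMIs or more, with mitochondrial UMIs no higher than 15%. Doublets were predicted from 2 simulated doublets per cell (expected rate 0.06), and 337 (2.37%) and 423 (3.03%) were removed.

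Cells were clustered with leidenalg 0.10.2 (2000 variable genes without the members, 30 components, 20 neighbours, resolution 1) under Python 3.11.15 with numpy 2.4.6, scipy 1.17.1, pandas 2.3.3 and igraph 0.11.9; figures used matplotlib 3.10.9. Clusters were named from marker lists. A cluster without a name whose median UMI count was under 0.5 of its library's was put in the set of cells with few UMIs; a cluster under one in 3 of it kept a name only with one of its markers among its 10 leading genes. Mixed and other small sets (450 and 384 cells in the mixed set) entered no comparison, apart from the responding cells and mean UMIs of endothelial-like cells.

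For each class and library counts were summed and divided by all UMIs of that class to give CPM, with exact Poisson intervals. Ratios between libraries have exact conditional binomial intervals and shares Clopper-Pearson intervals. All are 95% intervals. List counts used members with at least 20 UMIs. Scripts were tested on simulated data.

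The members, lists and limits were chosen with earlier results of these data known. The rule for named genes took members called in a class, those highest in a class relative to the next, a fixed set (Ifit1, Ifit3, Isg15, Rsad2, Irf7, Stat2, Bst2, Irf1, Gbp2, Irgm1, Igtp, Socs1, Ifnb1, Ifng, Ifngr1 and Ifnar1), up to 3 leading pairs per class and the 3 other genes most like the type I sum; members named beyond it were chosen after their values were seen. Alternatives covered clustering, doublets, cell filters, scaling, thinning, the cells and clusters included and the limits for a responding cell or a call. One further gene of the fixed set is not reported here.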

Additional observations from a re-analysis of the deposited data

Results flagged for a closer look

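These clusters are given a closer look because the difference between the libraries went one way in one cluster and the other way in another of the same class, each interval excluding 0. The difference between clusters was not tested, and the clusters were the extremes of those in their class. In the compartment the type I sum had a log2 ratio, library labelled SPP1 over library labelled vector, of 1.18 in C9 and -0.52 in C2. The gamma sum had 0.48 in C9 and -0.74 in C17. Among macrophage/monocyte-like cells the type I sum had 0.94 in P6 and -0.55 in P7, and the gamma sum 0.17 in P0 and -0.66 in P6, so P6 was at the upper end for type I members and at the lower end for gamma members.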

How the results depend on the processing

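No paired analysis was possible because each group was 1 library. Under the alternatives, 96 values of the results that answer a comparison stayed within their interval (counts within 1.5 times), 26 moved and 5 reversed. All values are log2 ratios of the library labelled SPP1 over the library labelled vector unless said. In the compartment, leaving out C3 and C12 gave 0.25 (type I sum), 0.34 (type I responding share) and, reversed, 0.13 (gamma sum) and 0.14 (gamma responding share). Weighting clusters alike gave 0.28, 0.42 and, reversed, 0.19 and 0.24. Thinning gave -0.045 (type I sum) and -0.23 (gamma sum), and asking for 1 UMI more gave a type I responding share ratio of 0.23. The macrophage/monocyte-like type I sum stood at 0.23 thinned, 0.18 without 3 cells per library, 0.40 with clusters alike and 0.41 with the stricter cell filter (1000 UMIs or more, mitochondrial UMIs no higher than 10%). In T and NK-like cells the type I sum was -0.40 without members under 100 UMIs and -0.33 with predicted doublets kept, which also gave -1.93 (type I) and -1.34 (gamma) for the responding share ratios. The gamma sum there was -0.024 thinned and, reversed, 0.0058 with clusters alike, and asking for 1 UMI more gave a gamma share ratio of -1.61. With at least 50 UMIs and no fold limit, 12 compartment members were higher and 17 lower, against 10 and 8 for macrophage/monocyte-like cells and 2 lower for T and NK-like cells. The share of all genes by that rule was not counted. Thinned to 2000 UMIs, the correlation of type I and gamma sums was 0.29 and 0.40 over compartment cells; the library labelled SPP1 had 0.26 for macrophage/monocyte-like cells and 0.37 for T and NK-like cells. The cause of these moves was not tested. Leaving the other interferon genes out of the clustering, and the values of single members without 3 cells or with clusters alike, were added after seeing the data. Low cell numbers in both the lymphoid and the dendritic classes limit what their values can show.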
